A study of Mus musculus with 21 samples.

Results

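Liver gene expression was compared between 2 groups of saline-treated mice that were killed 6 days apart, on day 9 and on day 3 of the same experiment. The members were the 3 arrays labelled control, day 9 and the 3 arrays labelled control, day 3 of array set p0617, which makes 6 of the 21 arrays of the series. All animals were female NMRI mice, an outbred stock. The day 3 and day 9 saline mice received the vehicle on day 2 and carried no drug. The mice used as a second pair of groups received SPC3372, a locked nucleic acid antimiR against microRNA-122, at 25 mg per kg on day 2 and were killed on the same days. Another saline group of 3 mice, killed on day 23, was hybridised in another array set, p0621. Each array holds liver RNA of 1 mouse, and the design text calls the 3 mice of a group biological replicates. The labels number the saline mice 1, 2 and 3 on both days, and since each mouse was killed for its liver they were taken as different animals. No source used here gives the age of the mice, the hour of killing or the feeding state.

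The liver runs a daily program. In the core clock loop the activators Arntl (BMAL1) and Clock drive the repressors of the Per and Cry families and the nuclear receptors Nr1d1 and Nr1d2 (REV-ERB alpha and beta), and Nr1d1 and Nr1d2 in turn repress Arntl. Dbp, Tef and Hlf activate and Nfil3 represses genes through a shared promoter element, and together with feeding they set the daily course of lipid, bile acid and glycogen metabolism in hepatocytes. Their levels in liver are known to vary with the hour of the day and with the last meal.

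The values are log2 expression levels made with RMA, which summarises the probes of each probe set after putting the arrays on 1 scale. A difference of 1 on this scale is a doubling. Each of 18193 genes was represented by its brightest probe set. Differences were tested with limma, with the Benjamini-Hochberg adjusted p taken over all genes, and a gene is said to have risen or fallen only where this p was under 0.05. Where the days are said not to overlap in a called gene, this describes the values. It is no further support, since a call already favours such genes. RMA pulls dim values together, so the fold of a gene that is dim on either day understates its change. Standard errors (SE) come from the limma fit of 18 arrays.

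Between day 3 and day 9, 1070 genes changed in saline liver, which is 5.88% of the genes tested. Of these, 503 were higher at day 9 (2.76%) and 567 were lower (3.12%), and 3272 genes had an unadjusted p under 0.05. The median difference over all genes was 0.013. The called changes were mostly small, with a median size of 0.55 on the log2 scale, and 65 genes rose and 80 fell by at least 2-fold. The extremes were Dbp, 37-fold higher at day 9, and Pnpla3, 8.48-fold lower. Over the 18193 genes the arrays correlated at 0.9942 to 0.9945 within day 3, at 0.994 to 0.9948 within day 9 and at 0.9893 to 0.9923 between the days. The count fell to 661 genes without day 3 replicate 1, to 705 without day 3 replicate 3 and to 608 without day 9 replicate 3, and the 567 falling genes to 353 without day 9 replicate 2.

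**Figure D1:**
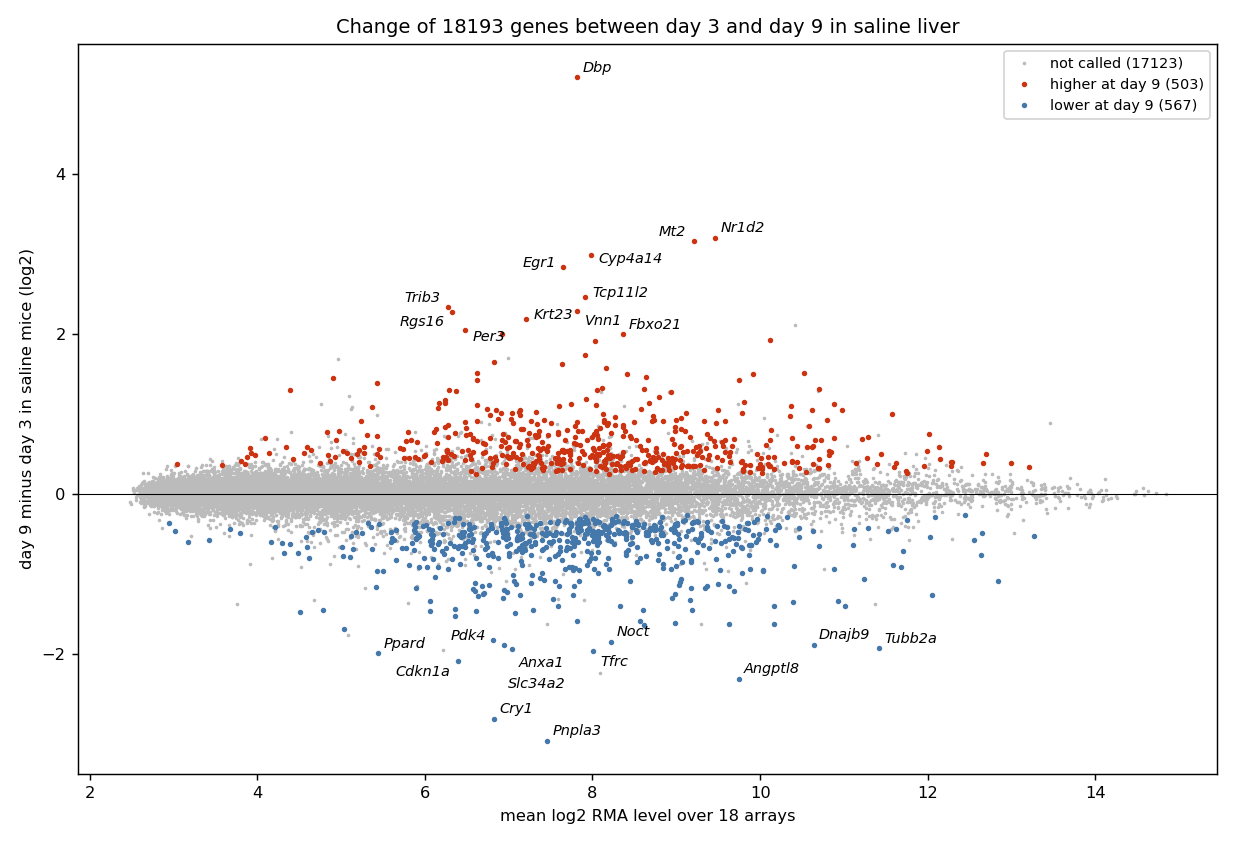
Difference between day 9 and day 3 in saline liver (vertical axis, log2) against the mean log2 RMA level over 18 arrays (horizontal axis), 1 point per gene. Red points rose and blue points fell at an adjusted p under 0.05, and the labelled genes are the 12 largest increases and 12 largest decreases among called genes whose higher mean is above the median probe set and whose 3 mice of one day all lie above the 3 of the other. Dbp stands alone at the top.

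The groups also differed in a measure of RNA integrity. The 3' probe set of beta-actin read 0.812, 0.846 and 0.756 above the 5' probe set at day 3 and 0.937, 0.861 and 0.98 above it at day 9 on the log2 scale. The ranges did not overlap, and the same quantity in Gapdh did (0.069 ± 0.187 at day 3 and 0.151 ± 0.156 at day 9, SD, n = 3). With the beta-actin quantity as a covariate in the fit, 593 genes were called, and 546 of them were among the 1070. Of the 84 called genes that were followed through the alternatives, 30 lost their call with this covariate: Egr1, Vnn1, Rgs16, Krt23, Anxa1, Npas2, Upp2, Elovl6, Thrsp, Nr0b2, Cyp7a1, Abcg8, Abcg5, Abcb4, Ugp2, Bckdha, Gstt2, Nat2, Manf, Mfsd2a, Tspan4, Acadm, Angptl4, Eci2, Etfdh, Gadd45a, Fkbp4, Atf4, Hspa5 and Sel1l. In a fit of the 6 saline arrays alone 16 of the 84 lost their call: Egr1, Junb, Nr0b2, Bckdha, Nat2, Il1rn, Manf, Mfsd2a, Tspan4, Acadm, Eci1, Etfdh, Gadd45a, Dnaja1, Hspa8 and Hspa5. A variance prior that follows the level and is robust to genes of outlying variance was also tried. With it 11 lost their call: Cyp4a14, Vnn1, Rgs16, Anxa1, Noct, Upp2, Elovl6, Thrsp, Cyp7a1, Manf and Gadd45a. Hepatocyte markers were high and level: their summed level, the log2 of the sum of the unlogged values of 10 markers, was 17.13 to 17.18 at day 3 and 17.14 to 17.17 at day 9. Xist averaged 10.67 and 10.21 on the 2 days and the Y-linked genes Kdm5d, Eif2s3y and Uty at most 3.70, as the female label has it.

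Core clock genes were among the most changed. Of 18 measured genes of the 3 clock lists, 11 were called, 5 higher and 6 lower at day 9. Over all genes 5.88% were called. The activators were low at day 9 and the REV-ERB genes, Per3, Dbp and Tef were high. The calls of 10 of these 11 genes held whichever 1 array was left out, and the exception was Npas2.

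Of the activators, Arntl, the partner of CLOCK, read 8.20, 8.39 and 8.04 at day 3 and 6.87, 7.12 and 6.31 at day 9. It fell by 1.45 on the log2 scale (2.72-fold, SE 0.18, adjusted p = 0.000113), with no overlap. Clock read 8.11, 8.17 and 7.97 at day 3 and 7.47, 7.35 and 6.97 at day 9, a fall of 1.76-fold (log2 -0.82, SE 0.12, adjusted p = 0.000436). Both had other probe sets above the median level, and all of these fell too by estimate, by less than the one used (-0.51 for Arntl and -0.27 to -0.60 for Clock). Npas2, which can take the place of Clock, was dim at 5.30, 5.46 and 5.72 on day 3 and dimmer at 4.17, 4.17 and 3.77 on day 9 (log2 -1.46, SE 0.34, adjusted p = 0.0154). Its call ended without day 3 replicate 3 or day 9 replicate 3 (adjusted p up to 0.0761). Rora, the nuclear receptor that opposes the REV-ERBs at their shared element, read 8.40 ± 0.17 and 8.41 ± 0.21 (SD, n = 3) and was not called.

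Among the repressors, Cry1 fell furthest. Its levels were 8.13, 8.42 and 8.38 at day 3 and 5.90, 5.43 and 5.17 at day 9, a fall of 7.01-fold (log2 -2.81, SE 0.21, adjusted p = 1.44e-06). Per2 was also lower, from 6.75, 6.98 and 6.75 to 5.60, 4.95 and 5.54 (log2 -1.47, SE 0.27, adjusted p = 0.00328). The period gene Per3 moved the other way, from 5.10, 5.89 and 5.31 at day 3 to 7.30, 7.07 and 8.08 at day 9, a 4.14-fold rise (log2 2.05, SE 0.31, adjusted p = 0.000674). In each of the 3 genes the days did not overlap. The other probe sets of Per2 (-0.37 and -0.42) and of Per3 (0.51 to 1.64) differed in the same direction and by less.

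The REV-ERB genes rose together. Nr1d1 read 6.02, 6.35 and 5.05 at day 3 and 7.50, 7.83 and 8.09 at day 9 (3.99-fold, log2 2.00, SE 0.25, adjusted p = 0.000135). Nr1d2 rose 9.20-fold, from 6.99, 7.76 and 7.26 to 10.53, 10.40 and 10.69 (log2 3.20, SE 0.25, adjusted p = 1.7e-06). In both genes every day 9 mouse stood above every day 3 mouse. The other repressors, Per1, Cry2, Bhlhe40, Bhlhe41 and Ciart, were not called, with differences between -0.18 in Bhlhe40 and 0.35 in Cry2. Per1, which also responds directly to glucocorticoid, read 6.01 ± 0.10 at day 3 and 5.99 ± 0.03 at day 9 (SD, n = 3).

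The output factor Dbp had the largest change of any called gene. It read 4.59, 5.42 and 5.22 at day 3, close to the median of all values (4.79), and 10.15, 9.76 and 10.96 at day 9 (log2 5.21, SE 0.37, adjusted p = 1.44e-06). A second probe set of Dbp rose by 3.99. Its relative Tef rose 2.75-fold, from 7.68, 7.99 and 7.85 to 9.26, 9.11 and 9.53 (log2 1.46, SE 0.12, adjusted p = 2.46e-06). Nfil3, which represses through the same element, fell 2.63-fold, from 8.86, 9.25 and 8.96 to 7.59, 7.82 and 7.47 (log2 -1.39, SE 0.15, adjusted p = 2.63e-05). Hlf, the third activator of that family, was level at 7.47 ± 0.04 and 7.45 ± 0.06 (SD, n = 3) and was not called.

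**Figure D2:**
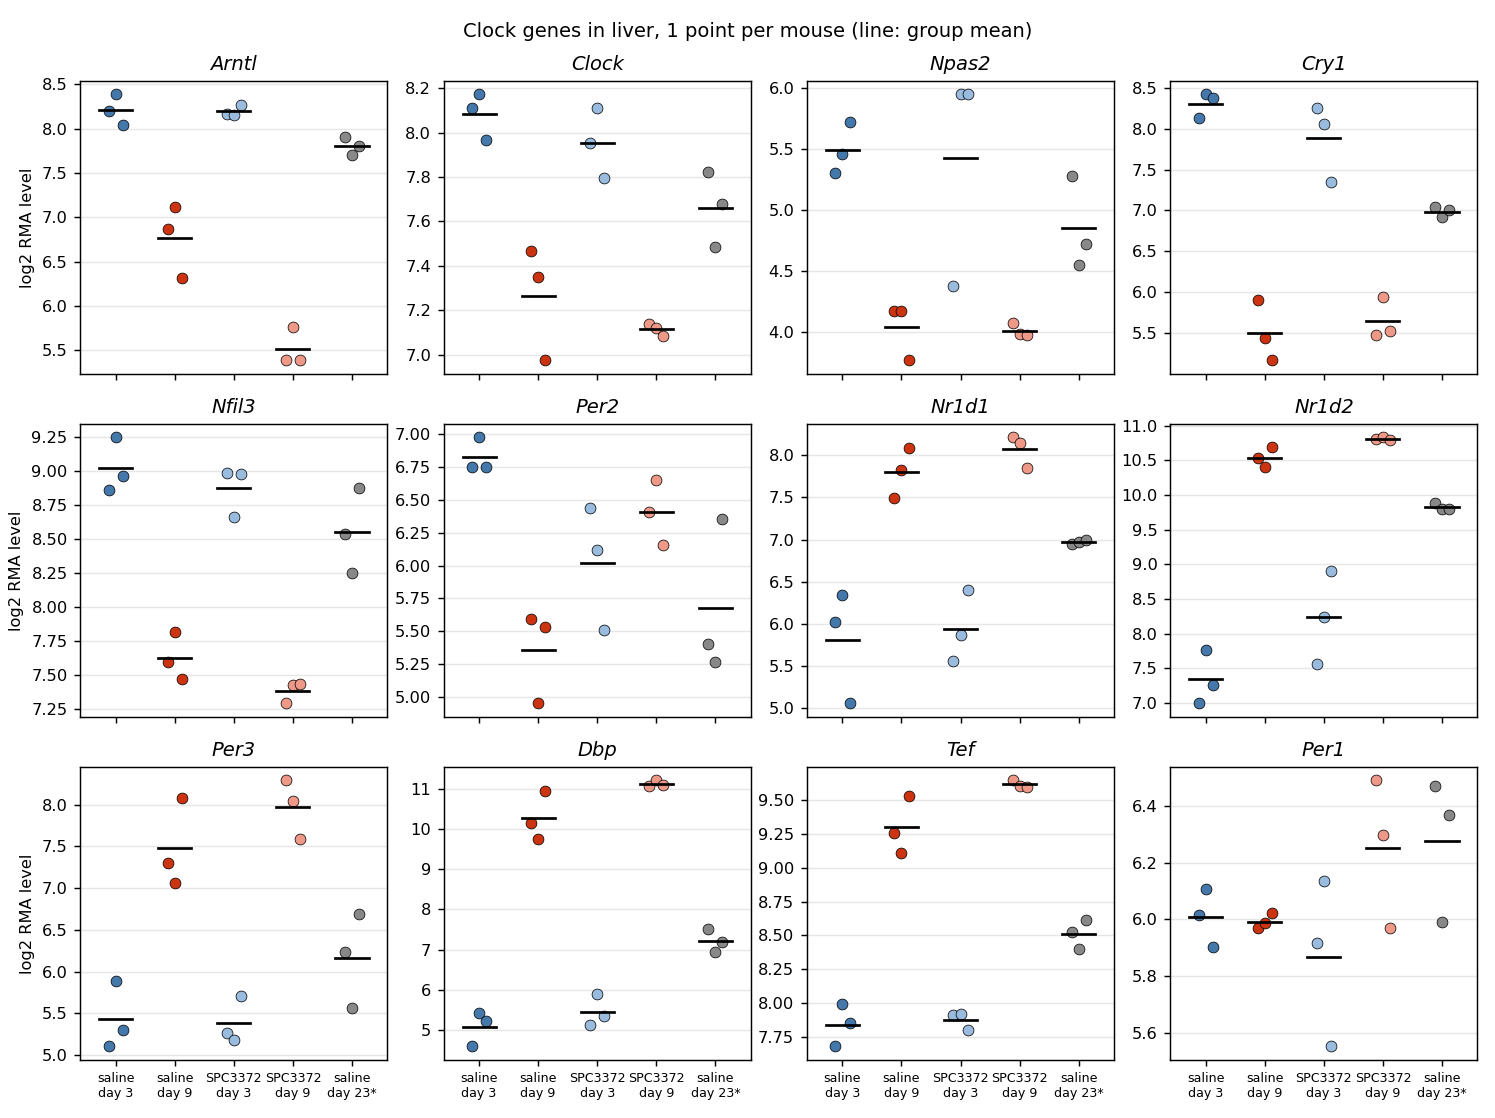
Log2 RMA level (vertical axis) of 12 clock genes in 5 groups of 3 mice, 1 point per mouse with a line at the group mean. Arntl, Clock, Npas2, Cry1 and Nfil3 are low and Nr1d1, Nr1d2, Per3, Dbp and Tef are high at day 9 in both the saline and the SPC3372 mice, Per2 is lower at day 9 only among the saline points, and Per1 overlaps in saline mice; the asterisk marks the day 23 group, whose arrays are of set p0621.

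The mean of the saline mice of day 23 lay between the means of day 3 and day 9 in each of the 11 called clock genes, though single mice of day 23 fell inside the range of another day in Per2, Per3 and Nfil3. The day 23 mean was 7.22 for Dbp, 6.99 for Cry1, 9.83 for Nr1d2 and 7.80 for Arntl. These arrays belong to the other array set, so day 23 was not tested against the other days. In the 3 treated mice of day 23 that were hybridised in both sets, Dbp differed between the sets by -0.02, -0.10 and 0.15 and Cry1 by -0.06, 0.14 and 0.18. Arntl differed by 0.14, -0.25 and -0.19 and Npas2 by -0.21, 0.41 and 0.02, so for these genes the shift between sets was nearer in size to the distance between days.

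Promoter windows from 250 bases before to 50 after the gene start were read from RefSeq (GRCm38.p6) for 16 of the 18 clock genes and searched on both strands. The motifs were the E-box CACGTG, at which BMAL1 and CLOCK bind, the D-box TTATGTAA or TTACGTAA, at which Dbp, Tef, Hlf and Nfil3 bind, and the ROR element TAGGTCA or TGGGTCA, at which Rora and the REV-ERBs bind. The E-box was found in 5 of the 16 (Bhlhe41, Ciart, Cry1, Per1 and Tef), the D-box in Per3 alone and the ROR element in Arntl and Nfil3. Of all 32851 windows in the table, 7.15% held the E-box, 1.06% the D-box and 6.45% the ROR element. Among genes with a window, the E-box was found in 10.2% of 14452 tested genes, 14.3% of 413 genes that rose and 14.6% of 472 that fell. In the same order the shares were 1.02%, 0.97% and 0.42% for the D-box and 6.79%, 4.84% and 6.99% for the ROR element. A sterol element, TCACNCCAC (1.46%, 1.94% and 1.27%), and a heat shock element, TTCNNGAA (8.79%, 7.02% and 10.2%), were also searched. A match is a string of letters and not a shown binding site. The 4 stretches below come from called clock genes with a match before the gene start and show where in the window each motif lies, 5′ to 3′ on the gene's strand, with the motif in capitals. The D-box occurs as a pair in Per3 (chr4:151044786-151044885, minus strand). The E-box stretches are from 1 of the 2 windows of Tef (chr15:81802493-81802592, plus strand) and Cry1 (chr10:85185065-85185164, minus strand). The ROR element of Nfil3 (chr13:52981040-52981139, minus strand) reads on the opposite strand, as TGACCTA.
Per3: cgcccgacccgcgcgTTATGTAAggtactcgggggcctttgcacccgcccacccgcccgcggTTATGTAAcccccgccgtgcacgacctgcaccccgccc
Tef: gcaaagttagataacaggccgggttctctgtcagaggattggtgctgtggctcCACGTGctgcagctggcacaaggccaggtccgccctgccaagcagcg
Cry1: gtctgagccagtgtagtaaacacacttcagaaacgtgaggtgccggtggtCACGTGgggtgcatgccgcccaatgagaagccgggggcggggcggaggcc
Nfil3: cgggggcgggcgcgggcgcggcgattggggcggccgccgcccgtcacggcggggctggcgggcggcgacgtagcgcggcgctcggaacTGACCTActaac

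Of the 5 clock genes with an E-box in this window, Tef rose, Cry1 fell and Bhlhe41, Ciart and Per1 were not called. Per3, with its pair of D-boxes, rose along with Dbp and Tef, and Nfil3 and Arntl, both with a ROR element, fell, while Nr1d1 and Nr1d2 rose. These pairings describe the letters and the values and were not tested.

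Of 16 measured liver genes known to follow the clock, 2 rose and 5 fell, with a median of -0.30. Thus 43.8% were called, against 5.88% over all genes. Noct (nocturnin), which removes a phosphate from NADPH and has a daily peak in liver, read 8.61, 8.51 and 8.84 at day 3 and 7.54, 5.97 and 6.91 at day 9 (3.59-fold lower, log2 -1.85, SE 0.44, adjusted p = 0.0181). Rgs16, a regulator of G protein signalling, read 5.0, 5.22 and 5.06 at day 3 and 5.99, 8.53 and 7.58 at day 9 (4.84-fold higher, SE 0.60, adjusted p = 0.0326), so its rise varied widely between the day 9 mice. Lonrf3 fell 2.39-fold (log2 -1.26, adjusted p = 0.000119) and the uridine phosphorylase gene Upp2 rose 2.14-fold (log2 1.10, adjusted p = 0.0268). Slc45a3, Mfsd2a and Tspan4 also fell, by 1.09, 0.95 and 0.65 on the log2 scale. Usp2 and Elovl3, both known for daily rhythms, were not called (0.08 and -0.26). Only Lonrf3 and Slc45a3 of the 7 kept their call whichever array was left out. Noct lost it without day 3 replicate 1 or 3 or day 9 replicate 2 or 3 (adjusted p up to 0.0964), Upp2 without the same 4 arrays (up to 0.129), and Rgs16 without any array but day 9 replicate 1 (up to 0.158). Mfsd2a lost it without day 3 replicate 1 or 2 or day 9 replicate 3 (up to 0.122) and Tspan4 without any array but day 3 replicate 2 (up to 0.205).

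Several genes of fatty acid and triglyceride synthesis fell. Of 24 measured genes 6 fell and 0 rose, and the median difference was -0.43, against 0.013 over all genes. The share called was 25%, against 5.88% over all genes. The median ran from -0.51 to -0.24 when 1 array was left out, the smaller value being that without day 3 replicate 2. Srebf1, the transcription factor that drives this pathway after feeding, read 11.95, 12.07 and 11.96 at day 3 and 10.58, 10.52 and 10.69 at day 9. It fell 2.63-fold with little spread on either day (log2 -1.40, SE 0.15, adjusted p = 3.34e-05). Pnpla3, a lipid droplet acylhydrolase whose gene Srebf1 induces, had the largest fall of all called genes, from 8.14, 10.21 and 9.41 to 6.04, 6.65 and 5.82 (log2 -3.08, SE 0.69, adjusted p = 0.0114). The elongase gene Elovl6 fell 2.55-fold and Thrsp, a nuclear protein gene induced with lipogenesis, 2.39-fold (adjusted p = 0.0349 and 0.0337). Mid1ip1, a partner of Thrsp that activates acetyl-CoA carboxylase, fell by 0.94 and Agpat2, which makes phosphatidic acid, by 0.63 on the log2 scale. Fasn, the fatty acid synthase gene, missed the threshold at -1.38 (adjusted p = 0.0538), and Scd1, Acly and Acaca had differences of -0.49, -0.56 and -0.38 that were not called.

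Without 1 array in turn, 3 or 4 genes of the synthesis list fell and at most 1 rose. Srebf1, Mid1ip1 and Agpat2 fell in each of these fits. The call of Pnpla3 ended without day 3 replicate 2 or day 9 replicate 3 (adjusted p up to 0.0568). Those of Elovl6 and Thrsp ended without any 1 of the 6 arrays (0.054 to 0.151 for Elovl6 and 0.0505 to 0.128 for Thrsp), and 1 of the 3 probe sets of Thrsp, the dimmest, read 0.06. Angptl8, a hepatocyte hormone gene that rises with feeding and blocks lipoprotein lipase, stood outside the list among the largest decreases. It read 11.58, 10.96 and 11.44 at day 3 and 8.77, 8.83 and 9.45 at day 9 (4.95-fold lower, log2 -2.31, SE 0.28, adjusted p = 0.000119).

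No call was made among cholesterol synthesis genes. Of 20 measured genes 0 were called by limma, 1 had an unadjusted p under 0.05, and the median was -0.16 (-0.03 with the beta-actin covariate). The largest difference, in Mvd, was -1.32 with an adjusted p of 0.149. The 16 apolipoprotein and lipoprotein assembly genes likewise had 0 calls by limma, with 1 at an unadjusted p under 0.05 and a median of 0.026. At the share of 5.88% called over all genes, lists of this length could hold 0 calls.

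Several genes of fatty acid oxidation rose. Of 27 measured genes in this list, which also holds targets of the fasting receptor PPARA, 10 rose and 1 fell, with a median of 0.28. Thus 40.7% were called, against 5.88% over all genes. Cyp4a14, a fatty acid omega-hydroxylase and a sensitive PPARA target, was flat at 6.77, 6.79 and 6.77 on day 3 and read 9.16, 11.68 and 8.44 on day 9 (7.90-fold, log2 2.98, SE 0.71, adjusted p = 0.0176). Vnn1, a pantetheinase gene, rose 4.89-fold, from 6.67, 6.10 and 7.95 to 9.72, 9.09 and 8.78 (SE 0.61, adjusted p = 0.0324). The fatty acid transporter gene Cd36 rose 2.98-fold, from 6.65, 7.09 and 7.02 to 8.04, 9.25 and 8.19 (SE 0.35, adjusted p = 0.0125). In all 3 genes every day 9 mouse stood above every day 3 mouse. For Cyp4a14 and Vnn1 this was a condition of being named among the largest increases. In Cyp4a14 the day 9 mice differed more among themselves (SD 1.70) than the day 3 mice did (SD 0.01).

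Enzymes of the mitochondrial pathway itself rose less. Cpt1a, which admits long-chain fatty acids to mitochondria, rose 1.80-fold, from 9.87, 10.27 and 10.08 to 11.02, 10.77 and 10.97 (adjusted p = 0.00375). Hadhb, Eci1, Eci2, Acadm and Etfdh, all enzymes of beta-oxidation or its electron transfer, rose by 0.28 (Etfdh) to 0.53 (Eci2) on the log2 scale, and the PPARA target Angptl4 by 0.91. Pdk4, which blocks glucose oxidation and is usually induced together with these genes in fasting, went the other way. It fell 3.54-fold, from 7.37, 7.54 and 7.27 to 5.26, 5.94 and 5.50 (log2 -1.82, SE 0.27, adjusted p = 0.000483). Ppara itself was not called by its brightest probe set (0.85, adjusted p = 0.093), but both of its other probe sets rose, by 0.85 and 1.16 (adjusted p = 0.0129 and 0.00092 by limma over all probe sets). Ppargc1a, a coactivator of PPARA, was not called either (0.60), and 1 of its 4 other probe sets rose, by 1.08 (adjusted p = 0.0162). The fasting hormone gene Fgf21 differed by 0.17 and was not called. By estimate 26 of the 27 genes were above 0, Pdk4 being the exception.

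Without 1 array in turn, 3 to 7 genes of the oxidation list rose and Pdk4 fell. Cpt1a, Hadhb, Eci2 and Pdk4 kept their call each time. A second probe set of Hadhb, nearly as bright as the one used (11.46 against 11.62), differed by 0.11 and was not called. Its adjusted p by limma over all probe sets was 0.702, and a dimmer probe set of Hadhb rose by 0.71 (0.0399). Cyp4a14 lost it without day 3 replicate 1 or 3 or day 9 replicate 2 (adjusted p up to 0.0821), Cd36 without day 3 replicate 1 or day 9 replicate 2 (up to 0.0694), Vnn1 without any array but day 3 replicate 3 (up to 0.132), Eci1 without day 3 replicate 1 or 2 or day 9 replicate 2 (up to 0.0696) and Angptl4 without day 3 replicate 1 or 3 or day 9 replicate 1 or 2 (up to 0.108). Etfdh lost it without any array but day 3 replicate 2 (up to 0.106) and Acadm without any 1 of the 6 (0.0601 to 0.111). With the beta-actin covariate 5 genes rose.

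Of 19 measured genes of bile acid synthesis and transport 5 rose and 1 fell, with a median of 0.12 (0.20 without day 3 replicate 1 and 0.19 without day 9 replicate 3). Calls made up 31.6% of the list, against 5.88% over all genes. Nr0b2 (SHP), a nuclear receptor that represses bile acid synthesis, read 9.87, 9.77 and 9.77 at day 3 and 7.91, 8.98 and 9.16 at day 9 (2.18-fold lower, log2 -1.12, SE 0.26, adjusted p = 0.0147). Cyp7a1, the rate-limiting enzyme of bile acid synthesis, rose 1.97-fold, from 10.19, 9.62 and 9.96 to 11.15, 10.91 and 10.65 (adjusted p = 0.0285). Cyp8b1, which makes cholic acid, rose 1.61-fold, from 11.01, 11.10 and 10.82 to 11.51, 11.71 and 11.78 (adjusted p = 0.00244). The 3 mice of the days did not overlap in any of these genes, which a call already favours. Abcg8 and Abcg5, which together form the transporter that exports sterols into bile, rose by 0.68 and 0.52, and Abcb4, which exports phospholipid, by 0.59 on the log2 scale.

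The importer Slc10a1 (0.06), the exporter Abcb11 (0.12) and the bile acid receptor gene Nr1h4 (-0.00) were not called. Cyp8b1 and Abcg8 kept their call whichever array was left out. Nr0b2 lost it without day 3 replicate 1 or day 9 replicate 1 (adjusted p up to 0.0563, with the log2 difference at -0.74 in the smallest case), and Abcg5 without day 3 replicate 1 or day 9 replicate 3 (up to 0.0809). Cyp7a1 lost it without day 3 replicate 2 or 3 or day 9 replicate 1 or 2 (up to 0.114) and Abcb4 without day 3 replicate 3 (0.0612). With the beta-actin covariate only 1 of the 6 calls was left in this list, that of Cyp8b1.

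The largest falls in sugar metabolism were in a pair of glycogen regulators. Of 14 gluconeogenesis and glycogen genes 1 rose and 2 fell, with a median of 0.06. Calls made up 21.4% of the list, against 5.88% over all genes. The falling pair, Ppp1r3b and Ppp1r3c, encode subunits that bring protein phosphatase 1 to glycogen and activate its synthesis. Ppp1r3b read 11.12, 10.92 and 11.04 at day 3 and 9.60, 9.54 and 9.06 at day 9 (3.09-fold lower, log2 -1.63, SE 0.20, adjusted p = 0.000122). Ppp1r3c read 11.39, 11.10 and 11.12 and then 9.98, 9.68 and 9.92 (2.54-fold lower, log2 -1.34, SE 0.17, adjusted p = 0.000119). Ugp2, which makes UDP-glucose, rose by 0.40 (adjusted p = 0.0233), a call that ended without day 3 replicate 1 or 3 or day 9 replicate 1 or 3 (up to 0.0852). The gluconeogenic genes Pck1 (0.38) and G6pc (-0.58) were not called.

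Amino acid breakdown and the urea cycle gave 1 higher and 1 lower gene of 24, with a median of -0.055 (0.025 without day 9 replicate 1). The share called was 8.33%, near the 5.88% over all genes. Tat, tyrosine aminotransferase, fell 2.12-fold from 13.19, 13.24 and 13.20 to 12.01, 12.06 and 12.30 (log2 -1.09, SE 0.16, adjusted p = 0.000536). No day 9 mouse reached the range of day 3. Bckdha, a subunit of the branched-chain ketoacid dehydrogenase, rose by 0.37, a call that ended without day 3 replicate 1 or 3 or day 9 replicate 2 (adjusted p up to 0.0873).

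Genes that respond to glucocorticoid or fasting moved both ways, with 3 higher and 4 lower of 17 and a median of -0.016 that ran from -0.36 to 0.18 when 1 array was left out. The share called was 41.2%, against 5.88% over all genes. Mt2, a metal-binding metallothionein, read 8.11, 8.04 and 9.87 at day 3 and 11.42, 11.95 and 12.12 at day 9 (8.93-fold higher, log2 3.16, SE 0.52, adjusted p = 0.00123). Its neighbour in function Mt1 read 10.01, 8.44 and 12.38 and then 11.85, 12.50 and 12.80, with overlap and no call. In both genes day 3 replicate 3 was the high mouse of its group. Klf9, a transcription factor induced by glucocorticoid, rose 2.07-fold (log2 1.05, adjusted p = 0.000179), and Gadd45a rose by 0.81.

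The 4 that fell were Cdkn1a, Ddit4, Tsc22d3 and Tat. Cdkn1a (p21), an inhibitor of the cell cycle, read 7.09, 6.99 and 7.52 at day 3 and 4.71, 5.49 and 5.13 at day 9 (4.26-fold lower, log2 -2.09, SE 0.30, adjusted p = 0.000368). A second, dimmer probe set of Cdkn1a read -0.15 and was not called. Ddit4 (REDD1), an inhibitor of mTORC1, fell 2.81-fold from 7.73, 7.94 and 7.38 to 6.09, 6.42 and 6.08 (SE 0.29, adjusted p = 0.00401). Tsc22d3 (GILZ), a direct glucocorticoid target, fell 2.25-fold from 9.78, 9.73 and 9.58 to 8.47, 8.73 and 8.38 (SE 0.20, adjusted p = 0.00169). Fkbp5, Sgk1 and Per1, also glucocorticoid targets, were not called (0.24, -0.50 and -0.02). Of the 7 calls only that of Gadd45a ended when 1 array was left out, for any array but day 9 replicate 1 (adjusted p up to 0.217).

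**Figure D3:**
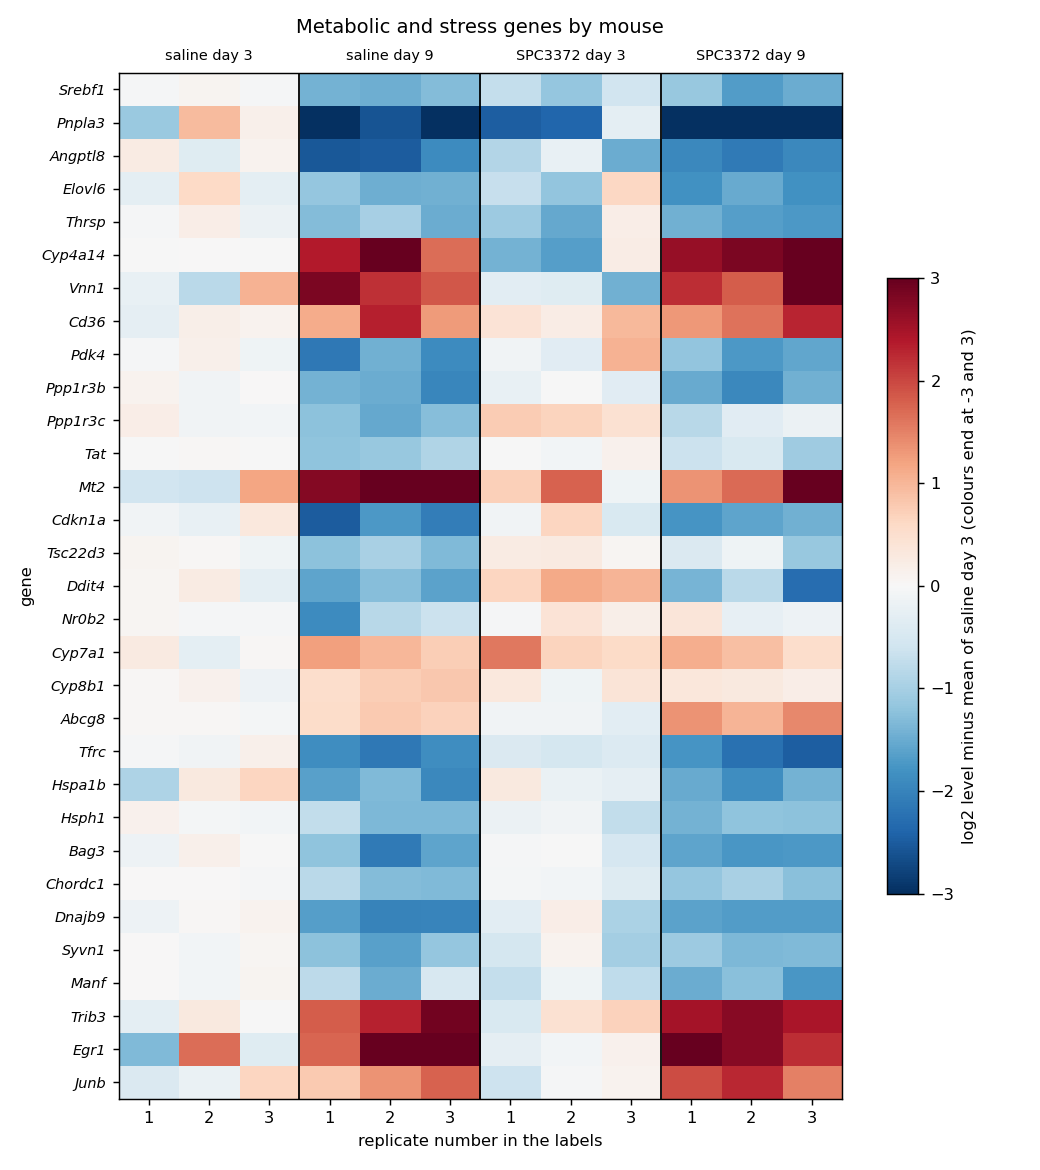
Log2 level of 31 metabolic and stress genes in each mouse, as the difference from the mean of the saline day 3 mice (blue lower, red higher, colours ending at -3 and 3). Columns are the 3 mice each of saline day 3, saline day 9, SPC3372 day 3 and SPC3372 day 9. Within saline mice Srebf1, Pnpla3, Pdk4, Tfrc, Bag3 and Hspa1b are blue at day 9 and Cyp4a14, Vnn1, Mt2, Trib3 and Egr1 are red.

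Most called heat shock genes fell. Of 17 measured genes 8 fell and 1 rose, with a median of -0.41. Thus 52.9% were called, against 5.88% over all genes. Bag3, a co-chaperone of HSP70, read 9.21, 9.53 and 9.37 at day 3 and 8.16, 7.25 and 7.80 at day 9 (3.10-fold lower, log2 -1.63, SE 0.25, adjusted p = 0.000771). Hspa1b, an inducible HSP70, fell 3.10-fold from 9.08, 10.30 and 10.66 to 8.39, 8.68 and 8.08 (SE 0.36, adjusted p = 0.0107). Hsph1 (HSP110) fell 2.21-fold, from 9.86, 9.68 and 9.65 to 8.98, 8.38 and 8.38 (SE 0.18, adjusted p = 0.000975). Chordc1, a co-chaperone of HSP90, fell 2.21-fold, from 9.51, 9.51 and 9.45 to 8.69, 8.19 and 8.16 (SE 0.15, adjusted p = 0.000197).

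The chaperone genes Dnajb1, Dnaja1, Hspa8 and Fkbp4 fell by 0.41 (Fkbp4) to 0.85 (Dnajb1) on the log2 scale. The 1 gene that rose was Cirbp, which is induced by mild cold and falls with warmth. It read 5.78, 5.69 and 5.73 at day 3 and 6.67, 6.78 and 6.97 at day 9 (2.11-fold higher, SE 0.21, adjusted p = 0.00432). The mitochondrial chaperone genes Hspd1 and Hspe1 (-0.08 and -0.09) were not called, nor was Hsp90aa1 (-0.28). Without 1 array in turn, 5 to 7 genes of the list fell and Cirbp rose. Hspa1b lost its call without day 3 replicate 3 or day 9 replicate 3 (adjusted p up to 0.0626), Hspa8 without day 3 replicate 1 or day 9 replicate 2 (up to 0.108), Dnaja1 without day 3 replicate 2 or day 9 replicate 2 or 3 (up to 0.0933) and Fkbp4 without day 3 replicate 1 or 3 or day 9 replicate 1 or 2 (up to 0.0785). With the beta-actin covariate 7 fell and 1 rose.

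The unfolded protein response, which raises the folding and disposal capacity of the endoplasmic reticulum, gave 6 lower and 1 higher gene of 25, with a median of -0.14 (-0.21 without day 3 replicate 3). Calls made up 28% of the list, against 5.88% over all genes. Dnajb9 (ERdj4), a co-chaperone there, read 11.36, 11.54 and 11.62 at day 3 and 9.85, 9.49 and 9.52 at day 9 (3.70-fold lower, log2 -1.89, SE 0.20, adjusted p = 2.63e-05). Syvn1, the ubiquitin ligase that disposes of misfolded proteins, fell 2.52-fold from 9.76, 9.66 and 9.80 to 8.52, 8.12 and 8.59 (SE 0.22, adjusted p = 0.00153), and its partner Sel1l fell by 0.64. Manf fell by 0.92, Hspa5 (BiP) by 0.53 and Atf4 by 0.46 on the log2 scale. Trib3, a pseudokinase gene induced by Atf4, rose instead, from 4.82, 5.42 and 5.10 to 6.93, 7.42 and 8.0 (5.06-fold, log2 2.34, SE 0.27, adjusted p = 8.04e-05), and both of its probe sets rose.

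Asns and Chac1, further Atf4 targets, were not called (0.05 and 0.78). Dnajb9, Syvn1 and Trib3 kept their call whichever array was left out. Manf lost it without day 3 replicate 1 or 3 or day 9 replicate 2 (adjusted p up to 0.117), Sel1l without day 3 replicate 3 or day 9 replicate 2 or 3 (up to 0.0681), Atf4 without day 3 replicate 3 or day 9 replicate 3 (up to 0.0851) and Hspa5 without any array but day 9 replicate 1 (up to 0.162). Without 1 array in turn 2 to 6 genes fell, and with the beta-actin covariate 2 fell.

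Of 13 immediate early genes, which respond within minutes to stimulation, 2 rose and 0 fell, with a median of 0.16 that ran from 0.034 to 0.157 when 1 array was left out. The share called was 15.4%, against 5.88% over all genes, but it rests on 2 genes. On the 6 saline arrays alone neither was called. Egr1, a zinc finger factor, read 5.29, 8.28 and 6.25 at day 3 and 8.35, 9.77 and 10.22 at day 9 (7.15-fold higher, log2 2.84, SE 0.61, adjusted p = 0.00892). Junb rose 2.47-fold, from 5.13, 5.34 and 6.19 to 6.34, 6.91 and 7.32 (SE 0.30, adjusted p = 0.0133). In both genes the highest day 3 mouse nearly reached the lowest day 9 mouse. Fos and Jun were not called (-0.28 and -0.23). Egr1 lost its call without day 3 replicate 1 or day 9 replicate 3 (adjusted p up to 0.0554) and Junb without day 3 replicate 1 or 2 or day 9 replicate 3 (up to 0.081).

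The largest changes outside these lists were as follows. Tcp11l2 rose 5.54-fold, from 6.04, 7.17 and 6.21 to 8.90, 8.76 and 9.16 (SE 0.25, adjusted p = 2.13e-05). The keratin gene Krt23 rose 4.54-fold, from 6.13, 7.03 and 6.37 to 8.41, 8.66 and 9.01 (SE 0.49, adjusted p = 0.0121), a call that ended without day 3 replicate 1 or day 9 replicate 3 (up to 0.0603). Fbxo21, part of a ubiquitin ligase, rose 3.99-fold with little spread at day 3, from 7.30, 7.25 and 7.36 to 9.11, 9.19 and 9.61 (SE 0.18, adjusted p = 5.2e-06), and its second probe set rose by 1.26. No day 3 mouse reached the range of day 9 in any of the 3 genes, which was a condition of being named here.

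On the falling side, Tfrc, the transferrin receptor that takes up iron, read 8.96, 8.91 and 9.15 at day 3 and 7.14, 6.86 and 7.14 at day 9 (3.90-fold lower, log2 -1.96, SE 0.24, adjusted p = 0.000119). Tubb2a, a tubulin gene, fell 3.81-fold from 12.35, 12.37 and 12.21 to 10.92, 10.11 and 10.11 (SE 0.20, adjusted p = 2.71e-05). The second probe sets of Tfrc and Tubb2a fell by 0.71 and 0.84 on the log2 scale, so the direction was shared and the size was not. Ppard, a nuclear receptor for fatty acids, fell 3.97-fold from 6.46, 6.92 and 6.70 to 4.67, 4.40 and 5.04 (SE 0.18, adjusted p = 5.2e-06). A second probe set of Ppard, of about the same brightness, read 0.20 and was not called, so the fall holds for the transcripts that the first one detects.

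Anxa1, a phospholipid-binding protein gene induced by glucocorticoid, fell 3.82-fold from 7.90, 7.06 and 8.16 to 5.18, 5.38 and 6.76 (SE 0.49, adjusted p = 0.024). Slc34a2, a phosphate transporter gene, fell 3.70-fold from 7.76, 7.20 and 7.56 to 6.49, 4.89 and 5.47 (SE 0.44, adjusted p = 0.0162). In neither gene did the days overlap, which was again a condition of being named. The call of Anxa1 ended without day 3 replicate 1 or 3 or day 9 replicate 1 or 2 (adjusted p up to 0.101) and that of Slc34a2 without day 3 replicate 1 or 3 or day 9 replicate 2 or 3 (up to 0.0847).

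**Figure D4:**
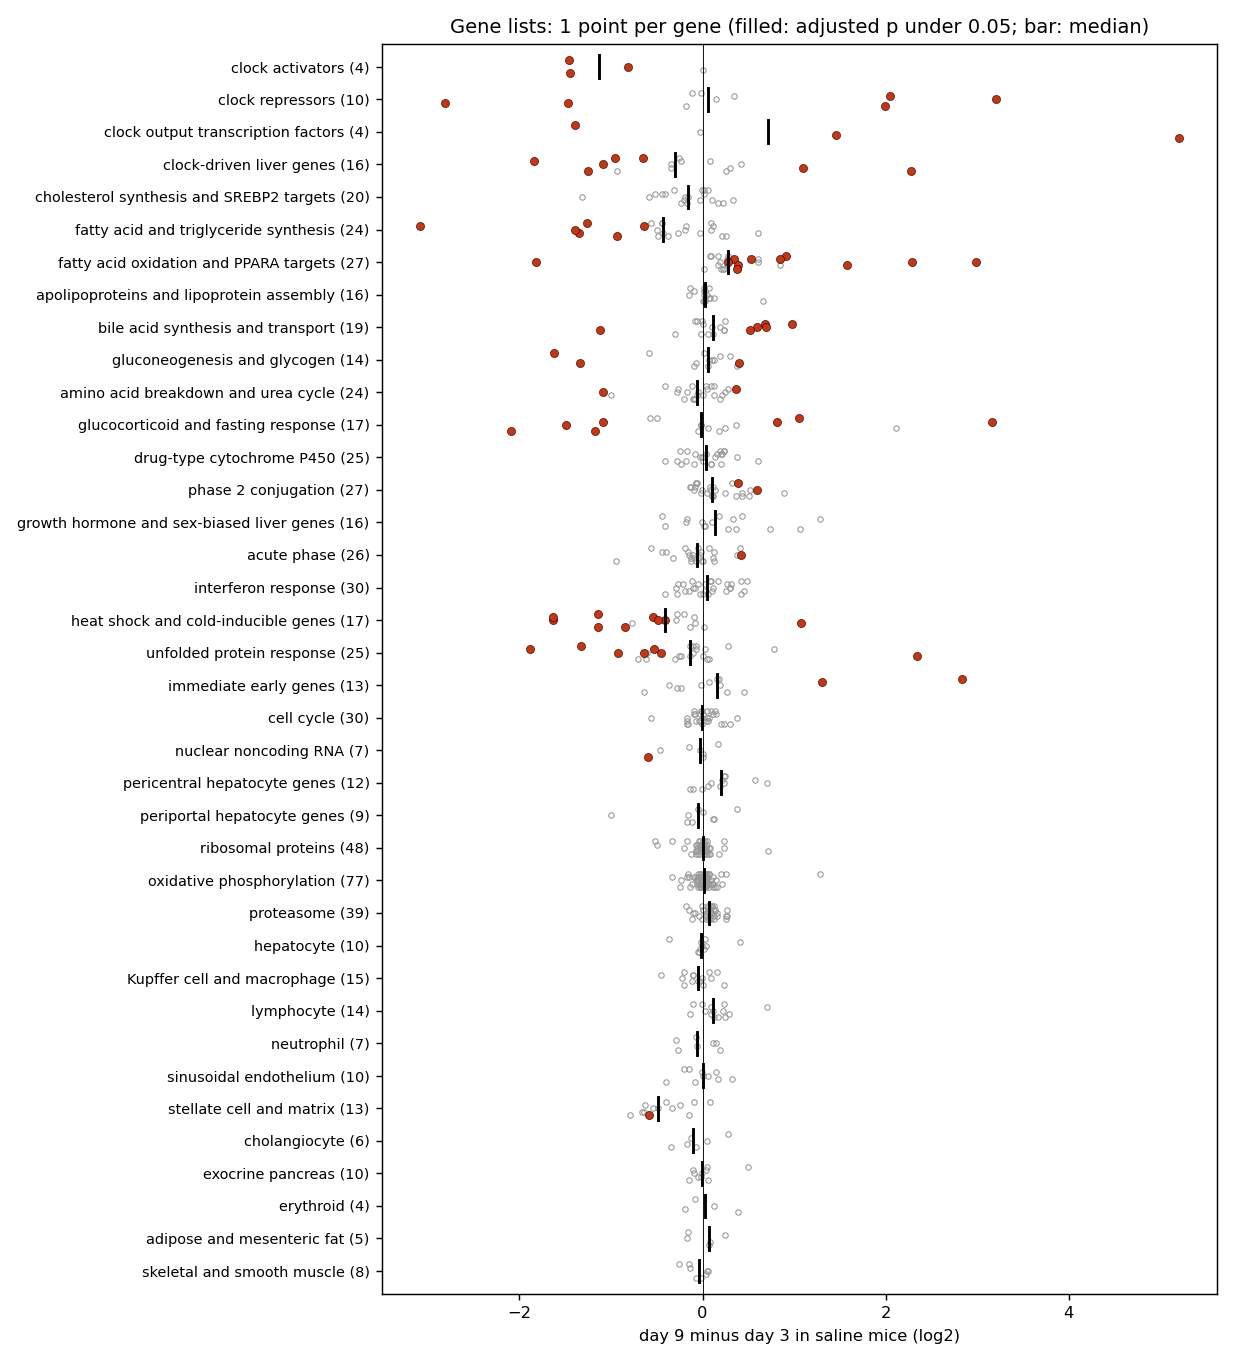
Difference between day 9 and day 3 in saline liver (horizontal axis, log2) for every measured member of 38 gene lists, with the number measured in brackets. Filled points passed an adjusted p of 0.05 and the bar is the list median. The clock lists, the heat shock list and the glucocorticoid and fasting list have the largest shares of filled points.

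Several lists gave no calls. Over all genes 5.88% were called, so the shorter of these lists could hold 0 calls at that share. By limma 0 of 25 drug-type cytochrome P450 genes, 0 of 16 growth hormone and sex-biased genes, 0 of 30 interferon response genes and 0 of 30 cell cycle genes were called. At an unadjusted p under 0.05 these lists had 5, 4, 3 and 0 genes, and their medians were 0.042, 0.14, 0.047 and -0.0014. Ribosomal proteins (48 genes), oxidative phosphorylation (77) and the proteasome (39) also had 0 calls by limma, with 4, 5 and 1 genes at an unadjusted p under 0.05 and medians of 0.0006, 0.017 and 0.076. The same held for 12 pericentral and 9 periportal hepatocyte genes (3 and 2 at an unadjusted p under 0.05, medians 0.20 and -0.053). Phase 2 conjugation had 2 rising genes of 27, Gstt2 (0.59) and Nat2 (0.39), acute phase 1 of 26, Il1rn (0.42), and nuclear noncoding RNA 1 falling gene of 7, Kcnq1ot1 (-0.60), whose call ended when its probe sets were averaged. The calls of Gstt2, Nat2 and Il1rn each ended without 5 of the 6 arrays (adjusted p up to 0.158, 0.117 and 0.157): the array whose omission left the call was day 3 replicate 3 for Gstt2 and Il1rn and day 9 replicate 1 for Nat2.

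Markers of other cells were checked in the same way, and of 11 marker lists only that of stellate cells and matrix held a call. That list had 7.69% of its genes called, near the share of 5.88% over all genes, so the count does not set it apart. Of its 13 genes Pdgfrb, a receptor of stellate cells and pericytes, fell by 0.59, from 7.65, 7.52 and 7.62 to 6.90, 6.93 and 7.21 (SE 0.12, adjusted p = 0.00717), and 12 of 13 estimates were below 0, with a median of -0.49. The collagen gene Col3a1 averaged 9.55 and 8.89, and Lrat, which stores vitamin A in these cells, 7.65 and 7.0, neither called (adjusted p = 0.38 and 0.306). The summed level of the list was 12.29 to 12.37 at day 3 and 11.83 to 12.04 at day 9, without overlap. With so few mice per day and 11 lists examined, 1 list without overlap can arise where the days do not differ. In whole liver, fewer cells of a type and less RNA per cell cannot be told apart. Any part of this difference in the other falls was not tested.

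The summed levels of the other marker lists, which the brightest markers dominate, overlapped between the days. They were 12.63 to 13.53 and 12.84 to 13.23 for Kupffer cells and macrophages, 11.91 to 12.18 and 12.01 to 12.14 for sinusoidal endothelium, 9.28 to 9.86 and 9.56 to 9.62 for lymphocytes, and 7.74 to 8.10 and 7.75 to 8.05 for neutrophils. For exocrine pancreas, which can be taken along with liver, the ranges were 10.35 to 10.69 and 10.23 to 10.80, with 7 of 10 markers below the median of all values on both days. Those of cholangiocyte, erythroid, adipose and muscle markers spanned 7.16 to 8.50 over both days. By the median over markers of the log2 level minus the day 3 mean, lymphocyte markers did not overlap (-0.054 to 0.031 at day 3 and 0.067 to 0.171 at day 9), nor did cholangiocyte markers (0.00049 to 0.015 and -0.163 to -0.016). Their part in the results was not tested. Each of these 9 lists had 0 calls by limma and between 0 and 2 genes at an unadjusted p under 0.05.

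The same pair of days was available in mice given SPC3372, which share no array with the saline mice but share the estimate of spread. There 2226 genes changed, or 12.2% of those tested (1251 without treated day 3 replicate 1 and 1417 without treated day 9 replicate 1). Of the 1070 genes called in saline mice, 1011 (94.5%) differed in the same direction between the days in treated mice, against 59.1% of the 17123 genes not called. In 586 genes the treated change was called in that same direction, which is 54.8% of the saline calls and 26.3% of the treated calls. In 2 genes it was called in the opposite direction. The beta-actin quantity was higher at day 9 in treated mice as well, without overlap. It read 1.013, 1.053 and 1.012 at treated day 3 and 1.129, 1.117 and 1.162 at treated day 9. Both pairs of groups thus share this difference in RNA integrity, and its part in the shared directions was not tested. Across the 18193 genes the changes of saline and treated mice correlated at 0.544 (Pearson) and 0.396 (Spearman), given as a description since genes are not independent replicates.

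**Figure D5:**
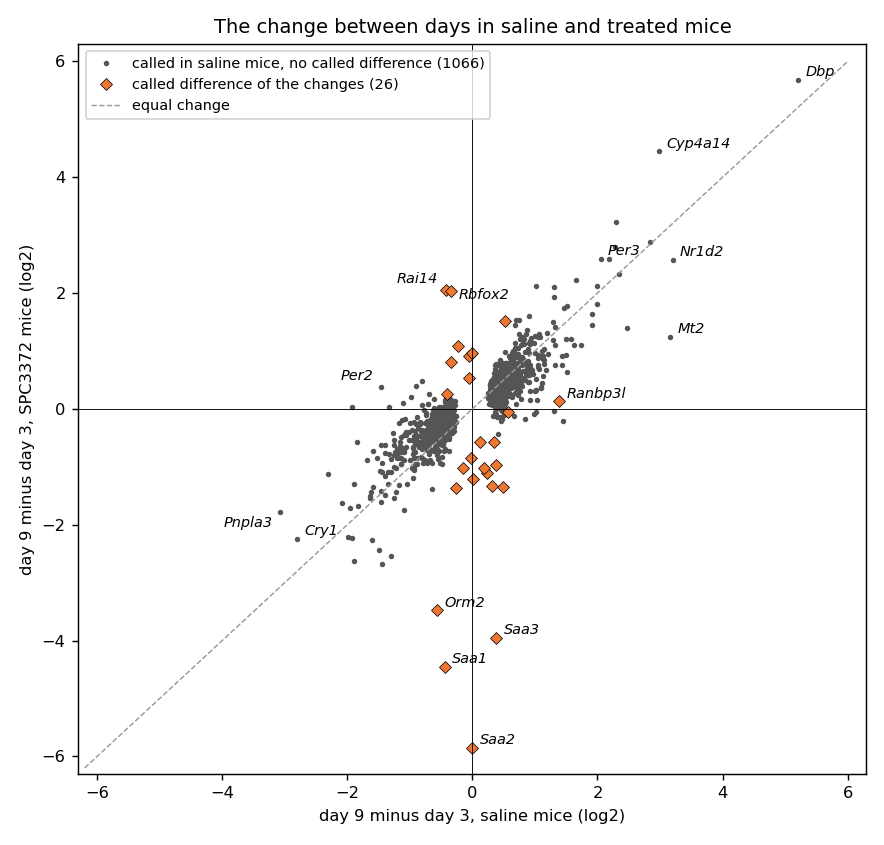
Difference between day 9 and day 3 in treated mice (vertical axis, log2) against that in saline mice (horizontal axis, log2), for genes called in saline mice (grey) and genes whose changes differed by test (orange diamonds, 26). The dashed line marks equal change; Dbp, Nr1d2 and Cry1 lie near it, and Saa1, Saa2, Saa3 and Orm2 lie far below.

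Of the 11 clock genes called in saline mice, 10 were called in the same direction in treated mice. Dbp rose by 5.68, Nr1d2 by 2.58 and Per3 by 2.59 there, Cry1 differed by -2.24 and Arntl by -2.69. Arntl thus fell further in treated mice by estimate, but the test of the difference missed the threshold (adjusted p = 0.0553). Per2 was the exception. It read 6.83 ± 0.13 and 5.36 ± 0.36 in saline mice and differed by 0.38 in treated mice (adjusted p = 0.397), and the difference of the changes had an adjusted p of 0.0669. All 11 called genes of the oxidation list were also called in the same direction in treated mice, with 20 of 27 rising there. In the synthesis list 2 of the 6 were. For heat shock genes it was 6 of 9, for the unfolded protein response 5 of 7, for the glucocorticoid and fasting list 6 of 7 and for bile acids 3 of 6. Cyp7a1 and Cyp8b1 were level in treated mice (-0.10 and 0.09), with adjusted p of 0.25 and 0.183 for the difference.

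The change between days itself differed between saline and treated mice in 26 genes (0.143% of those tested), of which 4 were among the 1070. The count depended on single arrays and ran from 7 to 64. Saa2, a serum amyloid gene of the acute phase, had the largest difference. In saline mice it read 8.15, 8.40 and 9.68 on day 3 and 8.40, 9.20 and 8.63 on day 9, with overlap. Its change in treated mice was -5.85.

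Some genes differed widely between mice of the same day. The median SD over all genes was 0.118 at day 3 and 0.121 at day 9. Among bright genes, those above the 75th percentile of level, Hsd17b13, a lipid droplet protein gene of hepatocytes, had the largest spread on both days. It read 10.85, 11.61 and 7.44 at day 3 and 10.95, 6.71 and 11.79 at day 9, so 1 mouse of each day was over 8-fold below the others. Serpina4-ps1 read 11.72, 11.13 and 9.15 and then 11.26, 10.04 and 7.80. Idh1, cytosolic isocitrate dehydrogenase, read 10.90, 12.57 and 8.99 and then 10.85, 12.66 and 10.49. Neither was called.

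Other genes of large spread were cytochrome P450 genes. Cyp26a1, which breaks down retinoic acid, read 7.86, 8.83 and 10.45 at day 3 and 6.95, 6.82 and 6.65 at day 9, and its 4.72-fold difference missed the threshold (adjusted p = 0.0981). Cyp3a16 read 6.79, 7.43 and 7.45 and then 9.10, 5.14 and 7.56, and Cyp2c23 read 11.08, 8.87 and 9.05 and then 9.20, 12.08 and 11.58. For these genes the difference between days was smaller than the spread within a day, apart from Cyp26a1, whose groups did not overlap.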

How the data were processed

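Liver was kept in RNAlater, and total RNA was extracted with Trizol and hybridised to Affymetrix mouse arrays. The authors deposited log2 values made with RMA, per the submitters' processing notes. No source used here names the RMA version or which arrays were normalized jointly. Of 45101 probe sets, 64 are controls, 34945 have 1 gene symbol in the platform annotation, 932 have several and 9160 have none, and 34741 Entrez identifiers were found in a RefSeq table (GRCm38.p6). Each of 18193 genes was taken from its probe set with the highest mean, and 9010 genes had more than 1. List members without such a probe set are counted as not measured.

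Group means of 18 arrays, 1 per mouse in 6 groups of 3, were fitted with limma 3.58.1 in R 4.3.3 (12 residual and 4.85 prior degrees of freedom, Benjamini-Hochberg adjustment, 0.05, two-sided). The steps were tested on simulated data. P-values set a difference between groups against the spread between mice within the 6 groups, and the number of arrays limits the precision. With 1 saline group per day, they do not cover variation between repeated samplings of a day. The members and the gene lists were chosen with earlier results of these data known. Genes named are the 12 largest called changes each way whose groups do not overlap and whose higher mean is above the median probe set, up to 4 called members per list, all clock genes, 5 genes of largest spread per day and 5 genes each way for the difference of changes. Further members of lists are named after their values were seen. Alternatives covered the arrays in the fit, scaling, level filters, probe set rule, variance prior, replicate number, the beta-actin covariate, a 1.5-fold threshold and leaving out each array. Figures were drawn with matplotlib 3.10.9 under Python 3.11.15.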

Additional observations from a re-analysis of the deposited data

Results flagged for a closer look

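In 10 named genes the change between day 3 and day 9 differed between treated and saline mice by limma's test of that difference. The values are the treated change minus the saline change on the log2 scale, and no cause was tested. The change was more positive in treated mice for Rai14 (2.49, adjusted p = 9.78e-05), Rbfox2 (2.37, 0.0261), Nufip2 (1.32, 0.0469), Coq10b (1.15, 0.0487) and Abcg5 (0.99, 0.0316). Of these Abcg5 alone was called in saline mice. It was more negative for Saa2 (-5.85, adjusted p = 0.000173), Saa3 (-4.33, 0.0132), Saa1 (-4.02, 0.00481), Orm2 (-2.92, 0.0178) and Irf7 (-1.84, 0.0221). In saline mice Saa1, Saa3, Orm2 and Irf7 differed between the days by -0.44, 0.38, -0.56 and 0.49, none of them called.

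The difference for Rai14, Saa2 and Saa1 held under every alternative run (adjusted p up to 0.0466, 0.00989 and 0.0263). That of Saa3 ended in the fits on the arrays of days 3 and 9 alone (up to 0.0633). The others also ended when 1 array was left out: Orm2 without saline day 3 replicate 1, saline day 9 replicate 1 or treated day 3 replicate 1 (adjusted p up to 0.162 over all its alternatives), and Rbfox2 without 6 of the 12 arrays of the comparison. Nufip2, Coq10b, Abcg5 and Irf7 lost it under 15, 14, 10 and 9 of their alternatives.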

How the results depend on the processing

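Of 84 named genes called in saline mice, 45 kept the call whichever array was left out, 19 kept it under every alternative they were tested in (15 to 17 each, since the level filters leave out dim genes) and 0 turned direction. For saline day 9 against day 3, the 1070 called genes (503 higher, 567 lower) became 693 (294 higher) on the 6 arrays alone, 593 (231 higher, 362 lower) with the beta-actin ratio as covariate and 34 (18 higher, 16 lower) for a change of at least 1.5-fold. Leaving out 1 array gave 608 to 902 genes (277 to 473 higher, 311 to 527 lower). For treated mice the 2226 genes became 1411 on their own arrays, 1346 above the 75th percentile of level, 1294 with the covariate, 53 at 1.5-fold and 1251 to 1968 without 1 array of theirs. The 26 genes whose changes differed became 7 on the 12 arrays of days 3 and 9, 4 at 1.5-fold and 7 to 64 without 1 array. The count was 14 without saline day 3 replicate 2, 49 without saline day 3 replicate 3, 64 without saline day 9 replicate 2, 9 without saline day 9 replicate 1 or 3, 7 without saline day 3 replicate 1, 10 without treated day 3 replicate 1 and 13 and 11 without treated day 9 replicates 1 and 2. The cause of these moves was not tested, beyond the fewer arrays of the smaller fits. Quantile normalization, median centring, the filter at the median level, the mean of probe sets and the variance prior kept the saline count within 1.5 times (1015 to 1346), but the variance prior ended 11 of the 84 named calls and the mean of probe sets 5; the 6 arrays alone ended 16 and the 12 arrays 7.

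Replicate numbers did not pair the mice (correlations of -0.065, -0.153 and 0.057 for numbers 1, 2 and 3), and with the number as a replicate block 995 saline, 2081 treated and 22 difference calls were made. Of 488 list medians recomputed, 41 moved by more than the spread between mice. Dim genes limit the comparison, since RMA compresses their differences.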
